A study of Mus musculus with 84 samples.

Results

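The genes described here are 41 hepatic targets of the nuclear receptor PPARA and enzymes of fatty acid oxidation, taken by symbol from the count tables as a list of names and not by their values. They are 41 of the 37310 gene IDs counted, and all 41 passed the filter on low counts, which kept 16195 genes. The counts come from livers labelled as from pregnant mice of 14 strains, aged 6 to 8 weeks at the start, with 3 libraries per strain given TCDD (2,3,7,8-tetrachlorodibenzo-p-dioxin) and 3 given peanut butter alone. TCDD was eaten once a day for 10 days at 0.1 µg/kg, which makes 28 groups and 84 libraries. Inbred strains were 129S1/SVIMJ, NZO/HILTJ, FVB/NJ, A/J, NOD/SHILTJ, C57BL6/J, BALB/CJ, DBA1/J, C3HeB/FeJ and CBA/J. To these came CC019/TauUnc, a line of the Collaborative Cross, and the BXD lines BXD91/2RwwJ, BXD-40/TyJ and BXD100/RwwJ, which are recombinant inbreds of C57BL/6J and DBA/2J. Whether every library stands for a separate animal is not said in the labels, and p-values therefore measure the spread between these libraries.

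PPARA is a receptor for fatty acids that, with its partner RXR, binds a direct repeat in DNA and switches on the genes that burn fat when a liver is short of glucose. Fatty acids bound by FABP1 are activated to acyl-CoA, carried into mitochondria by the carnitine shuttle and shortened there by beta-oxidation, while very long and branched chains are shortened in peroxisomes. Excess acids are oxidised at the far end of the chain by the CYP4A enzymes, whose genes are among the most strongly PPARA-driven in rodent liver.

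The CYP4A genes of the list stand close together on chromosome 4 and differ in few bases, which bears on how reads could be told apart. The first 90 coding bases of each are shown from the GENCODE M21 transcripts (GRCm38, 5′ to 3′), with capitals where a base differs from Cyp4a10 at the same position.
Cyp4a10: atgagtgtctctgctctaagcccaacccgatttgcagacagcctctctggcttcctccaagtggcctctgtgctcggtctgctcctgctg
Cyp4a14: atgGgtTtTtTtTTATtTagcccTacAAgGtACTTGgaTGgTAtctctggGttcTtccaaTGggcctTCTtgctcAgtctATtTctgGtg
Cyp4a31: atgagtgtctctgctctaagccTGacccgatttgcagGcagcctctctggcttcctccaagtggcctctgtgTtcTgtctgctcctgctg
Cyp4a32: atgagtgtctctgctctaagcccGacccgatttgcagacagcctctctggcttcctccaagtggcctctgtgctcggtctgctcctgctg
In this stretch Cyp4a14 differed from Cyp4a10 at 34 positions, Cyp4a31 at 5 and Cyp4a32 at 1. Over the whole coding sequence Cyp4a10 was 97.2% identical to Cyp4a32, 96.6% to Cyp4a31 and 75.9% to Cyp4a14. Of all windows of 50 bases, 40.6% of those of Cyp4a10, 31.5% of those of Cyp4a31 and 46.8% of those of Cyp4a32 occurred in a transcript of another gene, against 0.407% of those of Cyp4a14. Levels of Cyp4a10, Cyp4a31 and Cyp4a32 are therefore uncertain where reads could not be assigned to a single copy, and those of Cyp4a14 hardly so by these reference transcripts. The alleles of the strains were not compared, and their part in the counts of any of these genes, Cyp4a14 included, was not tested.

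Other members with near copies were Acaa1a and Acaa1b (96.5% identical, 38.1% of windows shared), Acot1 (59.0% of windows), Acot3 (52.8%), Acot2 (45.2%) and Acot4 (20.5%), and Hadhb, of which 90.4% of windows occurred in a transcript named Gm13910. Hadha and Hadhb encode the alpha and beta subunits of the mitochondrial trifunctional protein, yet per kilobase of exon their median vehicle levels were 49.3 and 3.84 CPM. Vnn1 and Vnn3 are 64.0% identical in coding sequence and shared no window with another gene.

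Of the 41 members 33 had a promoter window in the RefSeq table (GRCm38.p6, 250 bases before to 50 after a start). The PPARA hexamer repeated with 1 base between, searched on both strands as AGGTCANAGGTCA, was in none of the 37 windows of these members and in 0.0396% of all 32851 windows. Its looser form AGGNCANAGGNCA was in the window of Fabp1 and in 0.381% of all windows. It is printed because it is the one member window with a match, at chr6:71199629-71199928 on the plus strand, with the match in capitals, read on the minus strand and beginning 67 bases before the start.
Fabp1: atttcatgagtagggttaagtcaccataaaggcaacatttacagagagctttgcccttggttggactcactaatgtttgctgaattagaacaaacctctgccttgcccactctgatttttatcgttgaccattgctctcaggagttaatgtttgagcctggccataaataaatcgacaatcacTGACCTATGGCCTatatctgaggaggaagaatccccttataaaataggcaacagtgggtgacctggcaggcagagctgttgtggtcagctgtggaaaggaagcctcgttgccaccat
Fabp1 was also the most abundant member per length, with a median over the vehicle groups of 4460 CPM per kilobase of exon, and its vehicle groups gave an adjusted p of 0.372 for a difference between strains.

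The libraries held 9122406 to 19689624 gene counts (median 16202909). CPM are counts scaled to a common library total after TMM adjustment, and a change is called at a Benjamini-Hochberg adjusted p below 0.05 in edgeR's quasi-likelihood test over all 16195 genes. Liver identity was plain, with 7 hepatocyte marker genes summing to 50825 to 137909 CPM in all libraries. The library labelled C57BL6/J TCDD replicate 3 had 0.223 CPM of Xist and 74.2 CPM of Ddx3y, which go against a female mouse. Markers of other tissues stood out in replicate 2 of vehicle A/J, where those of skeletal muscle summed to 2261 CPM and those of adrenal cortex to 450 CPM, and in replicate 1 of vehicle BXD-40/TyJ, where those of adrenal cortex summed to 612 CPM and those of white fat to 122.5 CPM. The medians over all libraries were 1.66 CPM for muscle, 14.6 CPM for adrenal cortex and 0.0877 CPM for white fat. Muscle markers also summed to 424 CPM in replicate 2 of TCDD BXD91/2RwwJ, 156.5 CPM in replicate 2 of TCDD CBA/J and 129.1 CPM in replicate 3 of vehicle CBA/J. In these bulk samples fewer cells of a type and less RNA per cell cannot be told apart. The alignment references appear to differ between strains, as given under processing, so strain and reference cannot be told apart where they do. Their part in the strain differences below was not tested.

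The vehicle livers of the strains differed in the members at the edges of the pathway and hardly in its core. Among the vehicle groups 21 of 41 members were called, against 46.8% of all genes, so the share is near that of genes at large. All 4 CYP4A genes were called. So were 4 of a mixed group of 5 genes, namely Pdk4, Fgf21, Vnn1 and Vnn3 but not Angptl4 (adjusted p = 0.0623, edgeR). Median ranges between the highest and the lowest strain were 4.18 for the CYP4A genes and 4.11 for the mixed group on the log2 scale. Among the 11 genes of mitochondrial beta-oxidation 3 were called, and their ranges lay between 0.33 and 0.86. The median range was 0.85 over the members and 1.13 over all genes. Treatment held a median of 0.192% of the variance of log2 CPM of the members and strain 40.99%, against 0.401% and 34.6% over all genes.

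**Figure D1:**
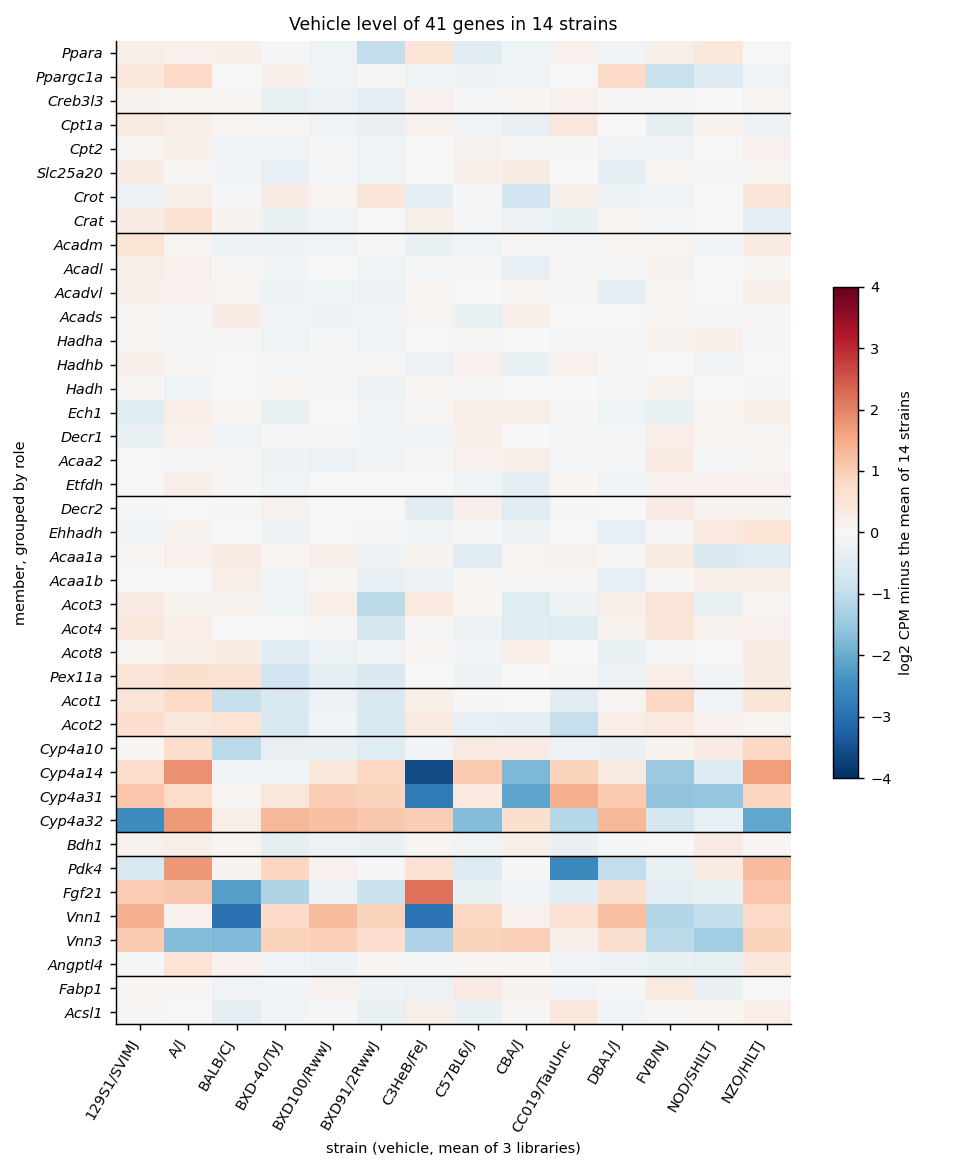
Vehicle level of each of the 41 members (rows, grouped by role) in each of the 14 strains (columns), as log2 of the mean CPM of 3 libraries minus the mean over strains. Strong colours fall on the CYP4A genes, Pdk4, Fgf21, Vnn1 and Vnn3, while the 11 genes of mitochondrial beta-oxidation, with ranges of 0.33 to 0.86, are pale in all columns.

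Cyp4a14 (ENSMUSG00000028715.2), which encodes a fatty acid omega-hydroxylase, had the widest range of all members, 5.57 on the log2 scale. It was at 1524, 885 and 548 CPM in the 3 vehicle libraries of A/J and at 373, 1505 and 758 CPM in those of NZO/HILTJ. In C3HeB/FeJ it was at 7.74, 22.2 and 39.5 CPM and in CBA/J at 27.9, 11.3 and 202 CPM. All A/J and NZO/HILTJ libraries lay above all of C3HeB/FeJ and CBA/J, and the libraries within CBA/J were themselves far apart, the highest being the one with muscle markers. The log2 difference from the mean of the other 13 strains (± SE) was 1.97 ± 0.42 in A/J, 1.79 ± 0.42 in NZO/HILTJ, -3.86 ± 0.71 in C3HeB/FeJ and -1.93 ± 0.61 in CBA/J. The adjusted p-values were 0.000465, 0.00205, 6.84e-05 and 0.0183 (edgeR). Leaving out 1 library at a time kept the call in C3HeB/FeJ. The call was lost without vehicle replicate 1 of A/J (adjusted p = 0.0632), replicate 2 of NZO/HILTJ (0.227) and replicate 1 or 2 of CBA/J (0.267 and 0.137), where the difference ran from -3.98 to -1.41. In BXD-40/TyJ, replicate 1, the library with adrenal and fat markers, had 14.2 CPM against 283 and 441 CPM in the others. The part of those tissues in that value was not tested.

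Cyp4a10 (ENSMUSG00000066072.6), another inducible omega-hydroxylase, varied far less, over 1.89 on the log2 scale. Its vehicle libraries were at 337, 660 and 467 CPM in NZO/HILTJ and at 107, 169 and 113 CPM in BALB/CJ, which did not overlap. In C3HeB/FeJ, where Cyp4a14 was lowest, Cyp4a10 was at 120, 281 and 360 CPM, inside the range of the other strains. The difference from the other strains was -1.15 ± 0.35 in BALB/CJ (adjusted p = 0.0249, edgeR) and 0.90 ± 0.29 in NZO/HILTJ (adjusted p = 0.0286).

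The balance between the pair thus differed by strain. The CPM of Cyp4a14 divided by that of Cyp4a10 averaged 0.0845 ± 0.0231 (SD, n = 3) in the vehicle libraries of C3HeB/FeJ, 0.177 ± 0.153 in CBA/J, 0.337 ± 0.181 in FVB/NJ and 0.525 ± 0.211 in NOD/SHILTJ. In the other strains it averaged from 0.887 ± 0.590 in BXD-40/TyJ, again with its replicate 1 at 0.229, to 2.51 ± 0.131 in BXD91/2RwwJ. The TCDD libraries, which are separate from the vehicle ones, gave 0.0689 ± 0.0101, 0.174 ± 0.0822, 0.142 ± 0.0252 and 0.601 ± 0.272 in the same 4 strains and 1.38 or more in the others.

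**Figure D2:**
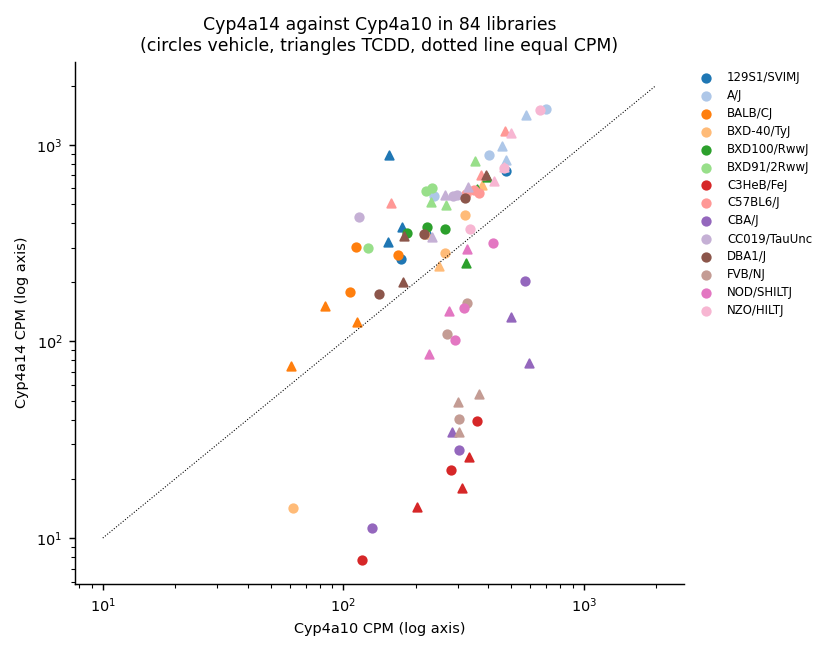
Cyp4a14 against Cyp4a10 in CPM on log axes in 84 libraries, coloured by strain, with circles for vehicle and triangles for TCDD and a dotted line at equal CPM. The libraries of C3HeB/FeJ, CBA/J and FVB/NJ form an arm well below the line, with vehicle ratios of 0.0845, 0.177 and 0.337.

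Cyp4a31 (ENSMUSG00000028712.5) was low in the same 4 strains. Its 3 vehicle libraries were at 1.05, 1.17 and 1.08 CPM in C3HeB/FeJ, 0.874, 1.60 and 2.81 CPM in CBA/J, 3.44, 2.50 and 1.71 CPM in FVB/NJ and 3.05, 2.64 and 2.20 CPM in NOD/SHILTJ. In CC019/TauUnc, the highest strain, they were at 22.002, 21.1 and 18.5 CPM. Over vehicle and TCDD together the 24 libraries of the low strains did not exceed 4.04 CPM. Among the other strains only libraries of C57BL6/J (from 2.23 CPM) and BALB/CJ (from 3.56 CPM) reached down to that level. The C57BL6/J libraries counted here include TCDD replicate 3, which goes against a female mouse. The difference of Cyp4a31 from the other 13 strains was -3.01 ± 0.39 in C3HeB/FeJ, -2.25 ± 0.36 in CBA/J, -1.70 ± 0.33 in FVB/NJ and -1.67 ± 0.33 in NOD/SHILTJ (adjusted p at most 0.00019, edgeR).

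Cyp4a32 (ENSMUSG00000063929.6) followed a different division of the strains. It was at 7.16, 5.73 and 6.62 CPM in the vehicle libraries of 129S1/SVIMJ, 7.28, 13.1 and 5.79 CPM in NZO/HILTJ, 11.4, 10.4 and 11.8 CPM in C57BL6/J and 26.9, 11.3 and 12.5 CPM in CC019/TauUnc. In A/J it was at 140, 102 and 123 CPM. All C57BL6/J, NZO/HILTJ and 129S1/SVIMJ libraries lay below all of A/J by several fold. The difference from the other strains was -2.71 ± 0.34 in 129S1/SVIMJ, -2.25 ± 0.33 in NZO/HILTJ, -1.86 ± 0.32 in C57BL6/J and -1.22 ± 0.30 in CC019/TauUnc (adjusted p at most 0.00255, edgeR). C3HeB/FeJ, lowest for Cyp4a14 and Cyp4a31, was above the other strains for Cyp4a32 by 1.06 ± 0.24 (0.00133). Since Cyp4a31 and Cyp4a32 share windows with Cyp4a10, how far alleles of these copies change which gene a read is assigned to was not tested.

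**Figure D3:**
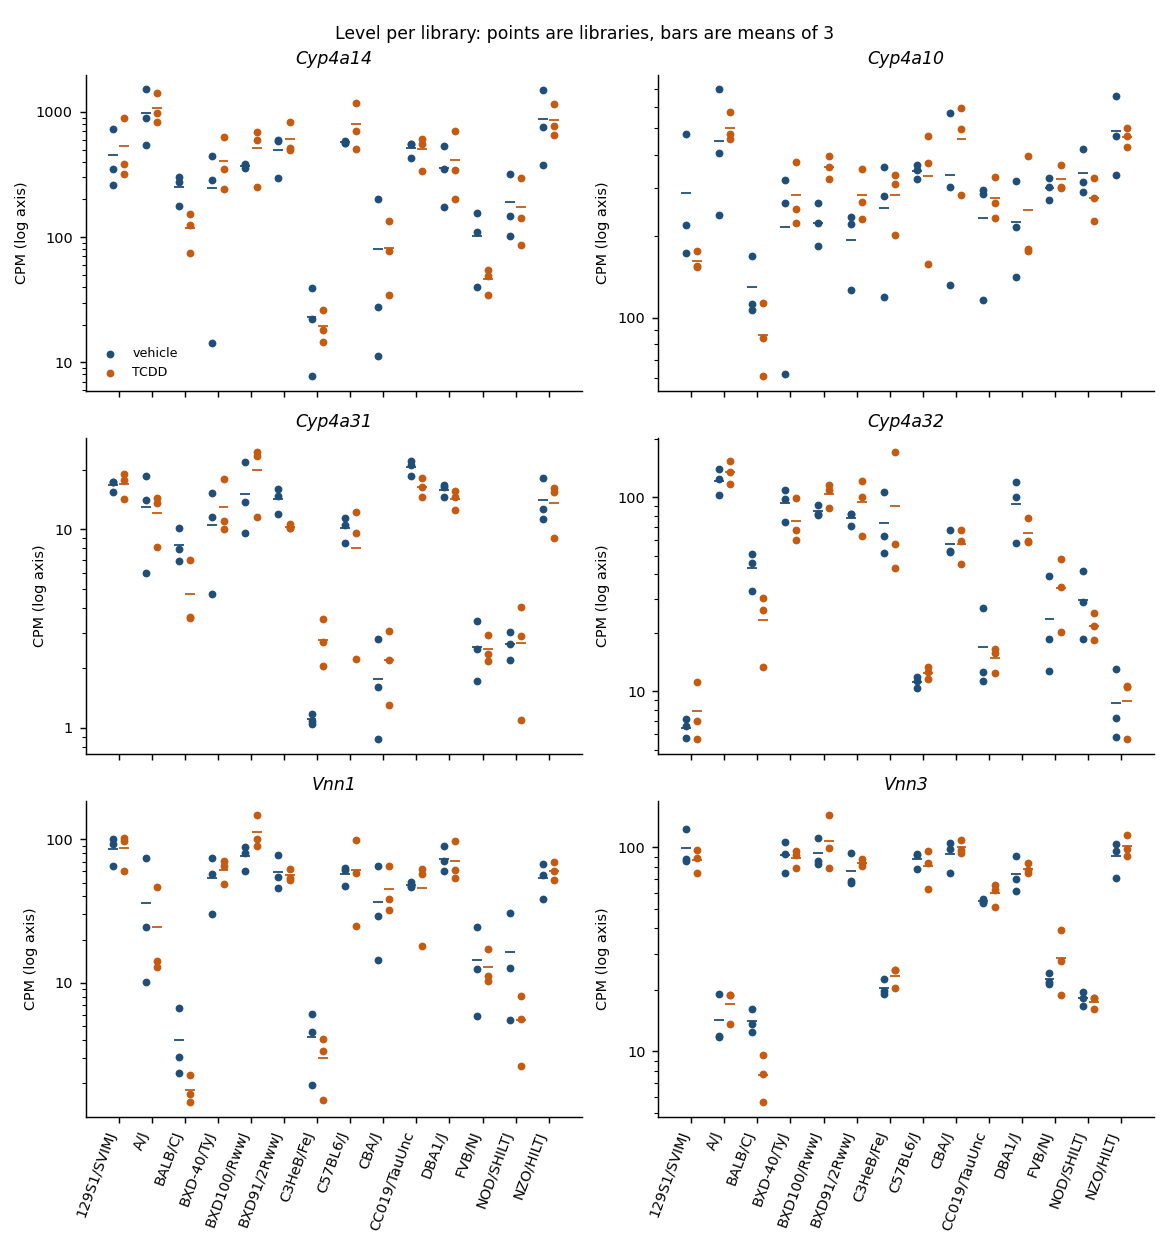
CPM on a log axis of 6 members in every library, by strain, with vehicle in blue, TCDD in orange and bars for the means of 3. Vnn3 falls into a low band in A/J, BALB/CJ, C3HeB/FeJ, FVB/NJ and NOD/SHILTJ (at most 39.2 CPM) and a high band in the other strains (at least 51.2 CPM), under both treatments.

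The vanin genes, which lie close together on chromosome 10 and encode pantetheinases involved in recycling vitamin B5, were the other wide pair. Vnn3 (ENSMUSG00000020010.7) had the smallest p of all members between vehicle groups (adjusted p = 1.34e-26, edgeR), and strain held 95.4% of its variance. Its vehicle libraries were at 19.2, 11.7 and 11.8 CPM in A/J, 13.7, 16.1 and 12.5 CPM in BALB/CJ, and 87.3, 123 and 85.8 CPM in 129S1/SVIMJ. Over both treatments no library of A/J, BALB/CJ, C3HeB/FeJ, FVB/NJ or NOD/SHILTJ was above 39.2 CPM and no library of the other 9 strains was below 51.2 CPM. It was called in 13 of 14 strains against the others, CC019/TauUnc being the exception at 53.58 to 55.97 CPM.

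Vnn1 (ENSMUSG00000037440.7), a known PPARA target in liver, was low in some of these strains and not in others. Vehicle libraries of BALB/CJ were at 3.03, 6.63 and 2.37 CPM, those of C3HeB/FeJ at 1.92, 4.51 and 6.07 CPM and those of 129S1/SVIMJ at 65.4, 93.3 and 100 CPM. BALB/CJ was at -3.24 ± 0.53 and C3HeB/FeJ at -3.17 ± 0.53 against the other strains (adjusted p = 6.81e-06 and 1.33e-05, edgeR), without overlap with 129S1/SVIMJ. A/J, low for Vnn3, had Vnn1 at 73.9, 24.4 and 10.1 CPM, spread over most of the range of all strains.

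Pdk4 and Fgf21 varied between strains and also between libraries of a strain. Pdk4 (ENSMUSG00000019577.4) encodes a kinase that shuts pyruvate out of oxidation, and was at 15.3, 45.3 and 34.9 CPM in vehicle A/J and at 1.53, 1.85 and 1.45 CPM in CC019/TauUnc. The difference from the other strains was 1.87 ± 0.48 in A/J (adjusted p = 0.00476) and -2.76 ± 0.79 in CC019/TauUnc (0.0119, edgeR). Between all vehicle groups Pdk4 had an adjusted p of 0.00784, and of 0.0727 without the BXD lines and CC019/TauUnc. Leaving out any 1 of the 3 vehicle libraries of CC019/TauUnc ended its call, with adjusted p from 0.0539 to 0.0701. The highest A/J value, 45.3 CPM, was in the library with muscle markers. Skeletal muscle also makes Pdk4, and the part of muscle in that value was not tested. Fgf21 (ENSMUSG00000030827.4), the gene of a fasting hormone secreted by liver, was at 5.76, 7.97 and 4.21 CPM in vehicle C3HeB/FeJ and at 0.308, 0.172 and 0.386 CPM in BALB/CJ. It was 2.32 ± 0.49 higher in C3HeB/FeJ than in the other strains (adjusted p = 0.000564, edgeR). The median coefficient of variation within groups was 60.7% for Fgf21 and 56.7% for Pdk4, against 8.32% for Etfdh, which passes electrons from beta-oxidation to the respiratory chain.

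Ppara itself (ENSMUSG00000022383.7) differed between vehicle groups (adjusted p = 0.000229, edgeR). It was at 49.7, 92.8 and 42.5 CPM in BXD91/2RwwJ and at 177.3, 145.3 and 204 CPM in C3HeB/FeJ, the lowest and the highest strain. Its difference from the other strains was -1.05 ± 0.20 in BXD91/2RwwJ (adjusted p = 0.000152) and 0.57 ± 0.17 in C3HeB/FeJ (0.0263, edgeR). The strain with the most Ppara RNA thus had the least Cyp4a14 RNA, and BXD91/2RwwJ, with the least Ppara, had Cyp4a14 at 580, 600 and 298 CPM. These are only the ends of the Ppara range, and a relation of the strain levels of Ppara and Cyp4a14 over all strains was not tested. In BXD91/2RwwJ 6 members were called, among them Creb3l3 at -0.44 ± 0.13 and Acot4 at -0.71 ± 0.23 (adjusted p = 0.0263 and 0.0444). Creb3l3 encodes a liver transcription factor of fasting and Acot4 a peroxisomal thioesterase. The coactivator gene Ppargc1a (ENSMUSG00000029167.7) gave an adjusted p of 0.208 between strains, with group means from 4.64 ± 1.34 (SD, n = 3) in FVB/NJ to 14.7 ± 9.14 CPM in DBA1/J.

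**Figure D4:**
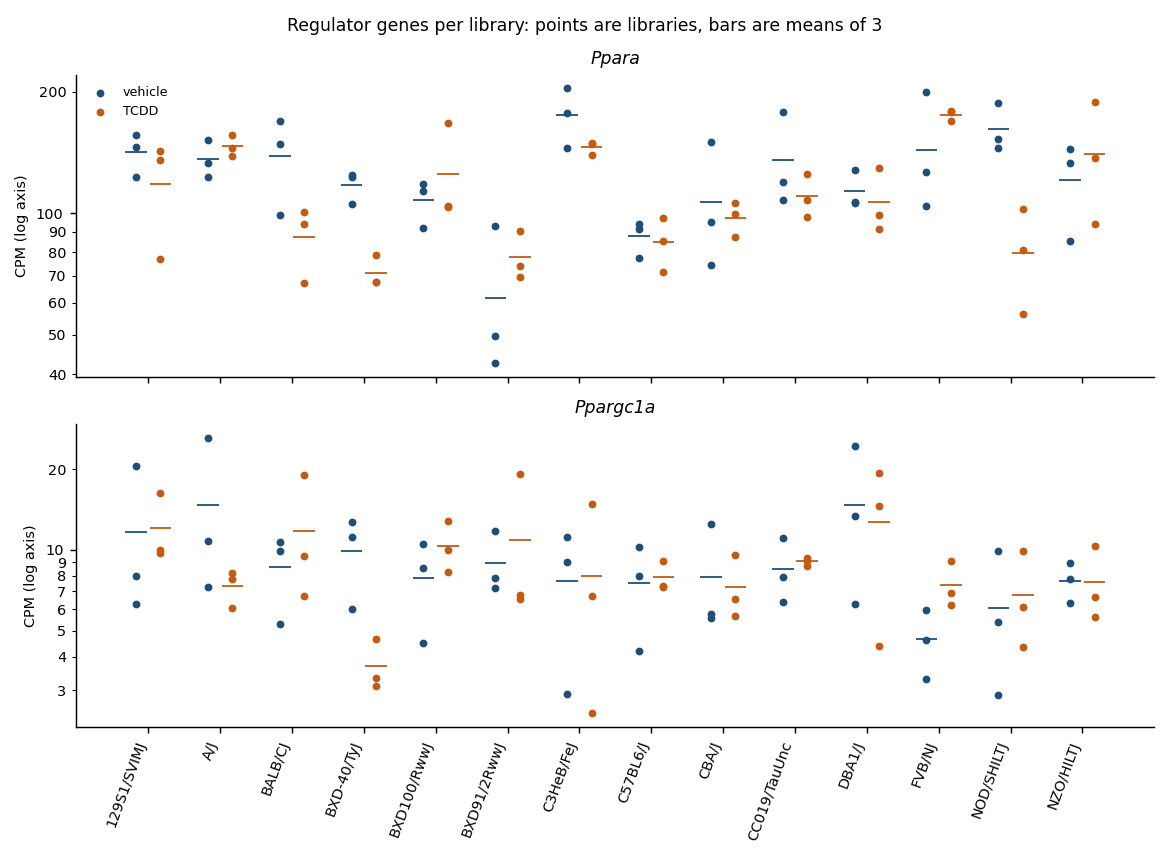
CPM on a log axis of Ppara (top) and its coactivator Ppargc1a (bottom) in every library, by strain, with vehicle in blue, TCDD in orange and bars for the means of 3. In NOD/SHILTJ the TCDD libraries of Ppara, at 56.3 to 102 CPM, lie below the vehicle libraries, at 144.9 to 188 CPM.

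Counted by strain, 71 of 574 pairs of member and strain were called in vehicle livers against the mean of the other 13 strains, 12.4%, where 8.94% of all gene and strain pairs were. Of these, 28 of 56 pairs were of CYP4A genes and 22 of 70 of the mixed group of Pdk4, Fgf21, Angptl4, Vnn1 and Vnn3. Vnn3 alone gave 13 of those 22, and Vnn1 gave others. Peroxisomal enzymes gave 9 of 112 pairs, and the 11 genes of mitochondrial beta-oxidation gave 5. In A/J (10.4% of all genes called), C3HeB/FeJ (7.14%) and CBA/J (20.05%) 8 of 41 members were called, which in CBA/J is near the share of all genes. In A/J 7 of the 8 were higher, among them the peroxisome division gene Pex11a by 0.70 ± 0.19 (adjusted p = 0.0106) and the lipase inhibitor gene Angptl4 by 0.59 ± 0.18 (0.0218). In CBA/J 2 of the 8 were higher, and the members called included Crot, which moves medium chains out of peroxisomes, at -0.82 ± 0.25 (adjusted p = 0.0133), the dehydrogenase gene Acadl at -0.34 ± 0.11 (0.0181) and Etfdh at -0.38 ± 0.13 (0.0273).

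Another 6 members each were called in 129S1/SVIMJ (7.91% of all genes), BXD91/2RwwJ (6.46%) and NZO/HILTJ (10.1%). In 129S1/SVIMJ Acadm, the medium-chain dehydrogenase, was 0.59 ± 0.13 higher (adjusted p = 0.000864) and the isomerase gene Ech1 was at -0.52 ± 0.16 (0.0301). In NZO/HILTJ the peroxisomal bifunctional enzyme gene Ehhadh was 0.60 ± 0.20 higher (0.042). In DBA1/J 5 members were called (5.03% of all genes), including Cyp4a32, 1.42 ± 0.23 higher, Vnn1, 1.29 ± 0.34 higher, and the very-long-chain dehydrogenase gene Acadvl at -0.41 ± 0.11 (0.0168). Vnn1 lost its call there without vehicle replicate 1 or 2 (adjusted p = 0.164 and 0.0621).

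Another 4 members each were called in BALB/CJ (7.76% of all genes), BXD-40/TyJ (6.27%), BXD100/RwwJ (4.48%), CC019/TauUnc (12.3%) and NOD/SHILTJ (13.6%). Pex11a was at -0.83 ± 0.23 in BXD-40/TyJ (adjusted p = 0.0133) and at 0.63 ± 0.20 in BALB/CJ (0.0325). In BXD100/RwwJ Cyp4a32 was 1.28 ± 0.23 and Vnn1 1.36 ± 0.34 higher, the latter with an adjusted p of 0.0773 and 0.123 without vehicle replicate 1 or 3. CC019/TauUnc had Cyp4a31 higher by 1.53 ± 0.24 and the acyl-CoA synthetase gene Acsl1 by 0.49 ± 0.13 (0.0037). NOD/SHILTJ had the peroxisomal thiolase gene Acaa1a at -0.62 ± 0.16 (0.00347) and the ketone body gene Bdh1 at 0.37 ± 0.13 (0.0394). The fewest, 2 members, were called in C57BL6/J (7.16% of all genes; Vnn3 and Cyp4a32) and FVB/NJ (6.55%; Vnn3 and Cyp4a31).

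The strain differences were then read in the TCDD libraries, which are separate from the vehicle ones. Of the 71 pairs called in vehicle livers 69 had the same sign among the TCDD groups (97.2%, against 92.0% of all called pairs) and 48 were called there with that sign (67.6%, against 46.8%). The exceptions in sign were Pex11a in BALB/CJ, at 0.63 against the other strains with vehicle and at -0.21 ± 0.21 with TCDD, and Etfdh in CBA/J, at -0.38 and 0.02 ± 0.12. Neither Ppara pair was called again, with BXD91/2RwwJ at -0.51 ± 0.19 (adjusted p = 0.122, edgeR) and C3HeB/FeJ at 0.46 ± 0.17 (0.061). Fgf21 in C3HeB/FeJ was at 0.50 ± 0.61 (0.632).

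Averaged over the 14 strains, TCDD changed no member past the threshold. Of 41 members 0 were called, against 0.179% of all genes, and 2 had an unadjusted p below 0.05, against 5.94% of all genes. The changes were small, with 25 members higher and 16 lower and none beyond 0.203 on the log2 scale in size. The member median was 0.01 and the median of all genes was at -0.0033. The widest of their 95% intervals, that of Fgf21, ran from -0.54 to 0.43. In the same fit Cyp1a1, the classical target of the dioxin receptor AHR, was 5.08 ± 0.31 higher on average. By strain its change ran from -0.30 ± 1.12 in NZO/HILTJ to 11.7 ± 1.23 in C57BL6/J. It was called in A/J, BXD100/RwwJ, BXD91/2RwwJ, C3HeB/FeJ, C57BL6/J and CBA/J and not in the other strains. The strains without a call differed among themselves. Cyp1a1 was at 4.31 ± 0.94 in BALB/CJ (adjusted p = 0.192, edgeR) and 4.25 ± 0.91 in FVB/NJ (0.114), but at -0.19 ± 1.24 in CC019/TauUnc. In A/J, which was called, it was at 4.50 ± 1.04 (0.0195).

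The smallest p belonged to Ehhadh (ENSMUSG00000022853.6). Its change was 0.20 ± 0.08 with an adjusted p of 0.624 (edgeR), and it was higher with TCDD in 11 of 14 strains. In BXD91/2RwwJ its vehicle libraries were at 287, 205 and 220 CPM and its TCDD libraries at 329, 477 and 308 CPM, without overlap, as were 4.41% of all genes in that strain and direction. The library at 477 CPM is the one with muscle markers, and the other TCDD libraries also lay above all vehicle libraries. In NOD/SHILTJ 1 TCDD library was at 835 CPM and the others at 212 and 197 CPM, below the 313 to 363 CPM of vehicle. Ppara followed with -0.17 ± 0.07 (adjusted p = 0.673), higher in 5 strains. Then came the carnitine acetyltransferase gene Crat with -0.12 ± 0.08 (0.898), Ech1 with 0.08 ± 0.06 (0.908) and Hadh, a dehydrogenase of short chains, with 0.06 ± 0.04 (0.909). Ppargc1a was at -0.04 ± 0.14, and its sign turned when single libraries or strains were left out.

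The strain by treatment test asked whether the TCDD change differed between strains, and 0 of 41 members were called, where 0.0309% of all genes were. At an unadjusted p below 0.05 there were 4, against 8.53% of all genes. Ppara came first, with an adjusted p of 0.334 in edgeR's quasi-likelihood test. Vnn3, Angptl4 and Pex11a followed at an adjusted p of 0.512, 0.538 and 0.562. Cpt1a, which encodes the gatekeeper of the carnitine shuttle, was next at an adjusted p of 0.755.

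**Figure D5:**
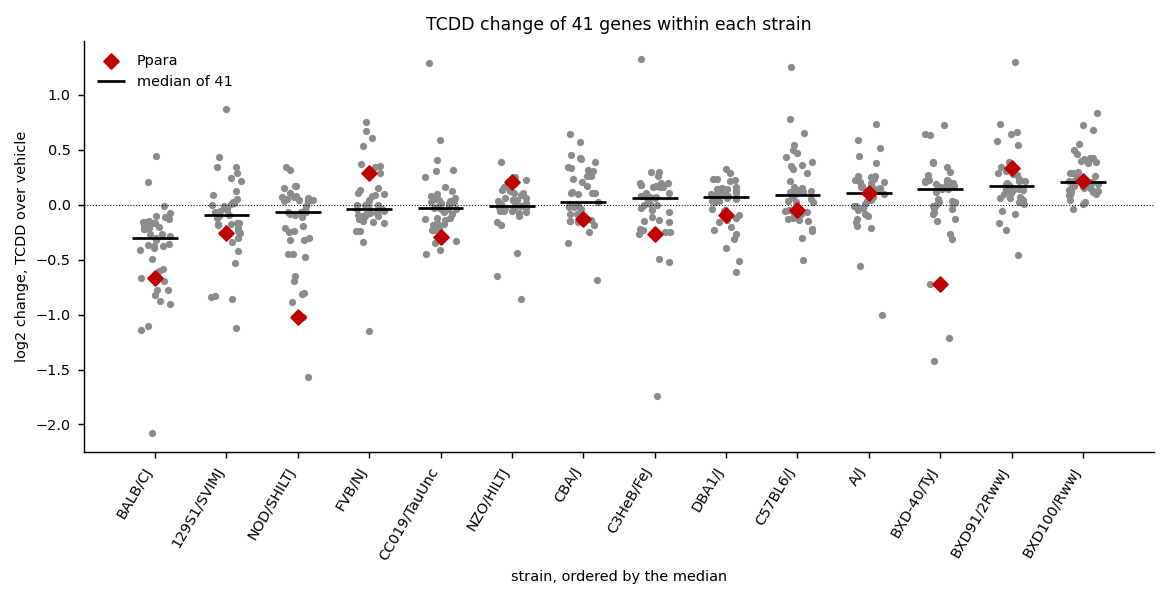
Fitted log2 change of TCDD over vehicle for the 41 members (grey points, spread sideways only for legibility) in each of 14 strains, with black bars for the member medians and red diamonds for Ppara. Strains are ordered by the median, from -0.30 in BALB/CJ to 0.21 in BXD100/RwwJ, and Ppara is lowest in NOD/SHILTJ at -1.02.

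Within strains 1 of 574 pairs of member and strain was called for TCDD, against 0.228% of all pairs. It was Ppara in NOD/SHILTJ, where it was the only member called and 1.91% of all genes were. The vehicle libraries were at 144.9, 152 and 188 CPM and the TCDD libraries at 102, 56.3 and 81.1 CPM, without overlap. Ppara fell by 1.02 ± 0.25 on the log2 scale (adjusted p = 0.0257, edgeR). Leaving out vehicle replicate 2 or 3 or TCDD replicate 2 or 3 ended the call, with adjusted p-values of 0.135, 0.131, 0.153 and 0.0801, and so did a fit to this strain alone (0.0707); the change stayed between -1.23 and -0.80. Cpt1a, at 405, 580 and 501 CPM with vehicle and 276, 201 and 368 CPM with TCDD, was at -0.81 ± 0.26 (0.0782, and 0.0453 with DESeq2). Vnn1 was at -1.56 ± 0.57 (0.119) and Acot4 at -0.65 ± 0.29 (0.204). In all, 9 of 41 members had every TCDD library below every vehicle library in this strain, where 11.2% of all genes did. In the authors' deposited table of fold changes the same strain has Ppara at -1.01 with an adjusted p of 0.00747 and Cpt1a at -0.81 with 0.0476, and these are the only member entries below 0.05 in its 14 strains.

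Other genes and markers moved in the NOD/SHILTJ livers as well. All 6 gluconeogenesis genes listed were higher with TCDD, with a median of 0.72 and 0 called, and of 18 clock genes 7 were higher and 0 were called. Cyp1a1 was at 0.47 ± 1.32. Summed endothelial markers were 149.01 to 241.7 CPM with vehicle and 116.3 to 140.8 CPM with TCDD, stellate cell markers 174 to 368 and 102 to 156 CPM, and Kupffer cell markers 469 to 654 and 347 to 414 CPM, while hepatocyte markers were 65225 to 67188 and 69467 to 88476 CPM. Their part in the Ppara value was not tested.

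Ppara was also lower with TCDD in BXD-40/TyJ, from 123, 124.7 and 106 to 67.6, 78.6 and 67.8 CPM without overlap, a change of -0.72 ± 0.25 that was not called (adjusted p = 0.221, edgeR). In that strain 3 of 41 members and 12.1% of all genes had every TCDD library below every vehicle library. Summed cholangiocyte markers there were 4.81 to 7.66 CPM with vehicle and 9.19 to 36.1 CPM with TCDD. The sum of Xist, Mup20 and 4 Y-linked genes was 346 to 474 and 130.1 to 246.1 CPM. That sum adds markers of both sexes, so its fall cannot be read as a difference in sex. The part of these markers in the Ppara value was not tested. In BALB/CJ Ppara went from 148, 170 and 98.8 to 67.3, 101 and 94.0 CPM (-0.67 ± 0.25, adjusted p = 1), where the groups overlapped. It was higher with TCDD in A/J, BXD100/RwwJ, BXD91/2RwwJ, FVB/NJ and NZO/HILTJ, by at most 0.34 ± 0.25 on the log2 scale and with no call.

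BALB/CJ and BXD100/RwwJ stood at opposite ends of the members' changes, with no member called in either. In BALB/CJ 39 of 41 members were lower with TCDD, with a median of -0.30 where the median of all genes was -0.007. The TCDD libraries were all below the vehicle libraries for 19 of 41 members, against 5.99% of all genes. Acot1, a cytosolic thioesterase strongly induced by PPARA, was at 37.4, 45.6 and 34.8 CPM with vehicle and 6.76, 12.8 and 8.21 CPM with TCDD. Its change was -2.08 ± 0.69 (unadjusted p = 0.00367, adjusted p = 1, edgeR), on libraries that did not overlap. In a fit to the BALB/CJ libraries alone the adjusted p was 0.00876. Vnn3, at 13.7, 16.1 and 12.5 CPM with vehicle and 7.70, 9.58 and 5.62 CPM with TCDD, was at -0.88 ± 0.21 (adjusted p = 0.507), and Pex11a went from 111, 115 and 110 to 60.3, 71.1 and 65.7 CPM (-0.77 ± 0.29, adjusted p = 1). Summed hepatocyte markers in the same livers were 62269 to 79609 CPM with vehicle and 50825 to 65352 CPM with TCDD. Stellate cell markers were 164.5 to 175.2 and 118.5 to 143.9 CPM. Their part in the members' values was not tested.

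In BXD100/RwwJ 40 of 41 members were higher with TCDD, with a median of 0.21 against 0.0042 for all genes, and 9 had every TCDD library above every vehicle library, against 3.87% of all genes. Pex11a was at 52.1, 51.8 and 67.6 CPM with vehicle and 115, 84.6 and 83.6 CPM with TCDD, a change of 0.72 ± 0.29 (adjusted p = 1, edgeR). In BXD91/2RwwJ 36 members were higher, with a median of 0.17 against -0.0099 for all genes. In the same livers the summed Kupffer cell markers were 454 to 516 CPM with vehicle and 231.03 to 410.02 CPM with TCDD, endothelial markers 79.1 to 92.7 and 60.7 to 67.7 CPM, and erythroid markers 101 to 140.8 and 50.9 to 81.6 CPM. These 3 sums did not overlap between the groups, and their part in the members' values was not tested. Members measured in the same libraries are not independent, and neither are these counts of members.

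Inside the groups, the order of the 3 libraries was compared between members. Cyp4a14 and Cyp4a10 put the 3 libraries of a group in the same order in 17 of 28 groups, while the median over all genes against Cyp4a14 was 5 and the highest 17. Acot1 and Pex11a did so in 19 groups, also the highest of all genes against Acot1. Cpt1a and the peroxisomal reductase gene Decr2 did so in 15, where the median over all genes against Cpt1a was 5 and the highest 16. Against Cyp4a14 35 of the other 40 members were above the median of all genes, and the lowest, Vnn3, shared the order in 3 groups. Against Acot1 all 40 were above it, against Cpt1a 35, against Pdk4 32 and against Ppara 31. Genes compared here share their libraries and scaling, and the counts carry no test.

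A list of 64 other genes of fatty acid transport, oxidation, ketogenesis and PPARA signalling was chosen with earlier results known. Of these 0 were called in the average TCDD change, against 0.179% of all genes. Between the vehicle groups 40 of the 64 were called, against 46.8% of all genes. Among those with the smallest p in the average were Pex16, at 0.11 ± 0.05 (adjusted p = 0.829, edgeR), and Acsl4, at -0.19 ± 0.10 (0.84). At baseline the widest ranges were those of Cyp4a12a, an omega-hydroxylase gene of male liver, up to 24.7 CPM in CBA/J and 0 in C57BL6/J, of Pparg, from 0.284 CPM in CBA/J to 8.76 CPM in BALB/CJ, and of the isomerase gene Eci3, from 6.54 CPM in CC019/TauUnc to 63.2 CPM in BXD-40/TyJ. Within strains 4 of 896 pairs of this list were called with TCDD, against 0.228% of all pairs. They were Cyp4a12a, Cyp4a12b and Fabp2 in C57BL6/J, the strain with the library that goes against a female mouse, and Fabp4, a fat cell gene, in BXD-40/TyJ (-3.25 ± 0.74, adjusted p = 0.0352), where 1 vehicle library held the fat markers given above, whose part was not tested.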

How the data were processed

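The deposited read counts per gene were made by the authors with FastQC 0.11.5, Trimmomatic 0.38, Bowtie2 2.3.2.25 and HTSeq 0.6.1 on mm9, per the submitters' processing notes; file names point to references that differ between strains, and the BXD libraries had 3.74 to 4.35% of reads not uniquely aligned against 7.80 to 10.2% in the others. The authors' deposited table gives log2 fold changes with p-values and adjusted p-values per strain (DESeq2, per the submitters' processing notes). From the counts of 84 libraries, genes kept by filterByExpr were fitted in 1 model of 28 groups with edgeR 4.0.16 in R 4.3.3 (TMM, trended dispersion, robust quasi-likelihood, Benjamini-Hochberg adjustment over 16195 genes). Unassigned reads stayed out of library sizes (46.7 to 52.6% without a feature, 0.442 to 1.41% ambiguous). Intervals of the average change used 56 residual degrees of freedom. Alternatives were DESeq2 1.42.0, other scaling, no low-count filter, no robust step, strains fitted alone and libraries or strains left out. Libraries left out 1 at a time kept the genes and dispersion trend of the full fit, and only the strain concerned was retested for its own contrasts. The fit was tested on simulated counts. Members, lists and tests were chosen with earlier results of these data known. Named in full were Ppara, Ppargc1a, members called for TCDD or else those with the 5 smallest p, the 8 called members with the widest vehicle range and, per strain, the 2 largest called differences; further called members were named after their values were seen. Symbols for 26400 of 37310 gene IDs came from the authors' table. Sequences came from GENCODE M21 (GRCm38) and RefSeq tables, a build other than the authors', so no positions were joined to the counts. Levels per kilobase did divide CPM by exon lengths from gene models of that other build. Labels and deposited file names disagree on which DBA strain was used, and the labels were followed.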

Additional observations from a re-analysis of the deposited data

How the results depend on the processing

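The average TCDD change and the strain by treatment test called 0 members with DESeq2, without the robust step, with no filter on low counts, with size factors from median ratios, without C57BL6/J TCDD replicate 3, without the 3 libraries that stood apart, without the BXD lines and CC019/TauUnc, and with any 1 library left out. Members called among the vehicle groups numbered 13 without the BXD lines and CC019/TauUnc, a fit with fewer strains, against 21, and 18 to 27 with 1 library left out. Of all genes, 6087 of 15972 were called in the fit with fewer strains, against 7579 of 16195 with all strains. Pairs called at baseline numbered 65 to 74 with 1 library left out, against 71. Pairs called for TCDD within a strain numbered 2 with DESeq2 (Ppara and Cpt1a in NOD/SHILTJ) and 0 to 2 with 1 library left out. The second, Crot in C3HeB/FeJ at -1.15, appeared without TCDD replicate 2 of that strain. Strains fitted alone also gave 1 pair, but it was Acot1 in BALB/CJ (-2.07, adjusted p = 0.00876) and not Ppara in NOD/SHILTJ (-1.01, 0.0707); the cause was not tested. The average change of Ppargc1a turned from -0.04 to 0.029 without the 3 libraries that stood apart and to 0.0147 without the BXD lines and CC019/TauUnc, and ran from -0.0958 to 0.0136 with 1 library left out; the cause was not tested. Where 1 library was left out of a group, its 2 others were assumed to vary like the rest. Depth bears on Fgf21, at 0.172 CPM in its lowest library shown. No paired analysis was possible because the replicate numbers follow accession order only and pair no libraries.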
